A study of Mus musculus with 12 samples.

Results

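The genes described here are 10 established targets of the transcription factor NRF2: Hmox1, Nqo1, Gclc, Gclm, Srxn1, Txnrd1, Slc7a11, G6pdx, Sqstm1 and Osgin1. They were chosen by name from among the 27179 genes of the deposited table, through the Entrez IDs of its first column, and all 10 were found. They were picked with their levels in these cells already known, so their differences between groups are given as a description, with no p-value printed. Their calls past a threshold, set beside the share of all genes called, are part of that description. All 10 passed the filter on low values (a normalized count of at least 10 in at least 3 libraries), which kept 13939 genes.

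The cells were mIMCD3, an established mouse kidney line derived from inner medullary collecting duct. In 4 groups of 3 poly(A) RNA libraries the study set out Actr3 KO-1 cells given 0.5 µM ciliobrevin D (Actr3 KO CB below), cells without both Actr3 and Ift88 (dKO), Actr3 KO-1 cells (Actr3 KO) and wild-type control cells. All groups were grown over 48 h to confluence in medium with 10% serum and then without serum for 24 h, and ciliobrevin D or its solvent was in the serum-free medium. Actr3 encodes ARP3, a subunit of the Arp2/3 complex that starts branched actin filaments, Ift88 encodes a transport protein needed to build cilia, and ciliobrevin D blocks the motor of cytoplasmic dynein. The labels give 1 line for each genotype, though 1 of the 3 control columns carries another line number, so whether the controls are 1 line is not settled. The labels name neither the edit nor separate cultures for the libraries of a group, so the spread between libraries may be technical. No group of control cells with ciliobrevin D was analysed here, and the labels do not say whether the dKO line was made from Actr3 KO-1.

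NRF2, encoded by Nfe2l2, is made all the time and is normally bound by KEAP1, which hands it to the CUL3 and RBX1 ubiquitin ligase for destruction. Oxidants and electrophiles react with KEAP1, NRF2 then builds up, pairs with a small MAF protein and binds antioxidant response elements, while BACH1 competes for the same elements and holds Hmox1 in check. Its targets make glutathione, renew thioredoxin, supply NADPH and break down haem and quinones, and in kidney tubules the pathway is known for limiting oxidant injury. As NRF2 is controlled mainly through the stability of the protein, RNA levels of Nfe2l2 do not measure its activity.

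The promoter windows below show where the core of the antioxidant response element lies in members that hold one. The core was searched as TGACNNNGC on both strands in RefSeq promoters of GRCm38.p6, which run from 250 bases before to 50 bases after a transcript's start. Windows were matched for 8 of the 10 members, all but Hmox1 and Gclc, and numbered 10 as Txnrd1 has 3. The core was present in 4 of those 8 members, against 17.1% of the 10545 tested genes with a window and 12.4% of all 32851 windows. Capitals mark the match, which in each of these windows is on the strand opposite to the gene, and each sequence reads 5′ to 3′ on the gene's strand. The Gclm window is chr3:122245307-122245606 on the plus strand, with the match 134 bases before the start. The Srxn1 window is chr2:152105274-152105573 on the plus strand, with the match 28 bases after the start. For Txnrd1 the window with a match is chr10:82858956-82859255 on the plus strand, 92 bases before the start, and for G6pdx it is chrX:74428831-74429130 on the minus strand, 57 bases before the start.
Gclm: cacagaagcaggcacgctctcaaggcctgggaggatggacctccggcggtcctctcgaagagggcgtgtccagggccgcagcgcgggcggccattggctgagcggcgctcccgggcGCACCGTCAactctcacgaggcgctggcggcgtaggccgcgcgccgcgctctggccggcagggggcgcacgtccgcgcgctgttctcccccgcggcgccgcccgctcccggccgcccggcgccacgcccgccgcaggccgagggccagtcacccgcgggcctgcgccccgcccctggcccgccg
Srxn1: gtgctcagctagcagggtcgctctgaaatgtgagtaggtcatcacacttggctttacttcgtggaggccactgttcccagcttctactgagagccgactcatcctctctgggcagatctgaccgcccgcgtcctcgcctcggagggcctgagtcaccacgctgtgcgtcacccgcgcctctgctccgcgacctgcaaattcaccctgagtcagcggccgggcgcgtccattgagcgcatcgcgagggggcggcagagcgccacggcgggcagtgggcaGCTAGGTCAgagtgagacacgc
Txnrd1: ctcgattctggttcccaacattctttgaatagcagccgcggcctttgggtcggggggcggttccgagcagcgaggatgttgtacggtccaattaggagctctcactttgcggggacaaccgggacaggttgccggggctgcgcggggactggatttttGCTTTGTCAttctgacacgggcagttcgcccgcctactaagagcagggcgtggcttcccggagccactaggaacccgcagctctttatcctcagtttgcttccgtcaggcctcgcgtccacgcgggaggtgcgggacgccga
G6pdx: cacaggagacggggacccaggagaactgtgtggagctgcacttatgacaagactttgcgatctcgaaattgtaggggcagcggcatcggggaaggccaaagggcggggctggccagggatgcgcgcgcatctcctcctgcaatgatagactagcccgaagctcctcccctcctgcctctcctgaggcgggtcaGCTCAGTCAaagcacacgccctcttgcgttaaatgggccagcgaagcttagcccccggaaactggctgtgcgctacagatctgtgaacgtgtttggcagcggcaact

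A related motif, TGANTCA, at which AP-1 binds and which can lie inside the longer core, was found in 2 members, Srxn1 and Osgin1, against 6.23% of the tested genes with a window. In Srxn1 it lies 102 and 45 bases before the start and does not overlap the marked match. The windows of Nqo1, Slc7a11 and Sqstm1 held neither motif. These matches say only which letters the windows hold, and known enhancers of several of these genes lie outside such windows.

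Libraries held 28902562 to 32544817 reads in Actr3 KO CB, 30391369 to 32588460 in dKO, 31425219 to 34977447 in Actr3 KO and 37001577 to 38077987 in control, and RNA quality was 10.0 on the RQN scale throughout. Levels are normalized counts, that is, reads per gene divided by a size factor of the library, and are not corrected for gene length unless stated. Actr3 averaged 1573 ± 180 normalized counts in Actr3 KO CB, 871 ± 38.6 in dKO and 1218 ± 111 in Actr3 KO, against 8336 ± 293 in control (SD, n = 3 each), while Ift88 averaged 438 ± 4.29 in Actr3 KO CB, 604 ± 29.8 in dKO, 617 ± 34.2 in Actr3 KO and 457 ± 14.9 in control, so its loss is not seen in RNA counts. The epithelial markers Krt8 and Cdh1 were high in every library, but the collecting duct channels Aqp2 and Aqp4 were at or near 0. Cdh1 was still lower in Actr3 KO CB (6004–6775) than in Actr3 KO (12963–15596). Among the other collecting duct and kidney markers, Slc14a2 was at 161–227 in control and at most 23.8 in any knockout library. Gata3 was instead lowest in control, at 15.3–20.8. Krt8, Krt18, Cdh1 and Epcam made up most of the sum over 12 collecting duct and kidney epithelium markers. That sum ranged over 50558–52321 in Actr3 KO CB, 55224–59701 in dKO, 47982–52215 in Actr3 KO and 80687–87717 in control. Summed over 10 markers of blood, endothelium, stroma and other nephron segments, levels were 249–297, 185–200, 508–524 and 551–676 in the same order. Umod and Col1a1 made up most of that sum, 2 of the 10 were above 10 in every library of each knockout group and 3 in every control library, and Adgre1, Cdh5, Slc34a1 and Nphs1 were at or near 0 throughout. Both sums move with the groups, and their part in the results below was not tested. In these bulk libraries, fewer cells expressing a gene and less RNA per cell cannot be told apart.

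In Actr3 KO and in dKO all 10 NRF2 targets were below control without overlap, as were 37.2% and 37.1% of all tested genes. In Actr3 KO CB all 10 were at least 2-fold above Actr3 KO. Of all tested genes, 5.86% were so at a limma adjusted p under 0.05. With quantile normalization Osgin1 and Txnrd1 fell just short of 2-fold, at log2 fold changes of 0.91 and 0.98. Together the 10 targets took 0.333–0.367% of all reads in Actr3 KO CB, 0.120–0.126% in dKO, 0.103–0.111% in Actr3 KO and 0.192–0.221% in control. The ordering by group means was Actr3 KO CB, control, dKO, Actr3 KO in 5 genes (Nqo1, Srxn1, Txnrd1, Sqstm1, Osgin1), and Actr3 KO CB, control, Actr3 KO, dKO in 3 (Hmox1, Gclc, Slc7a11). In Gclm and G6pdx control stood above Actr3 KO CB, and the 2 knockout groups without drug were again the lowest.

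**Figure D1:**
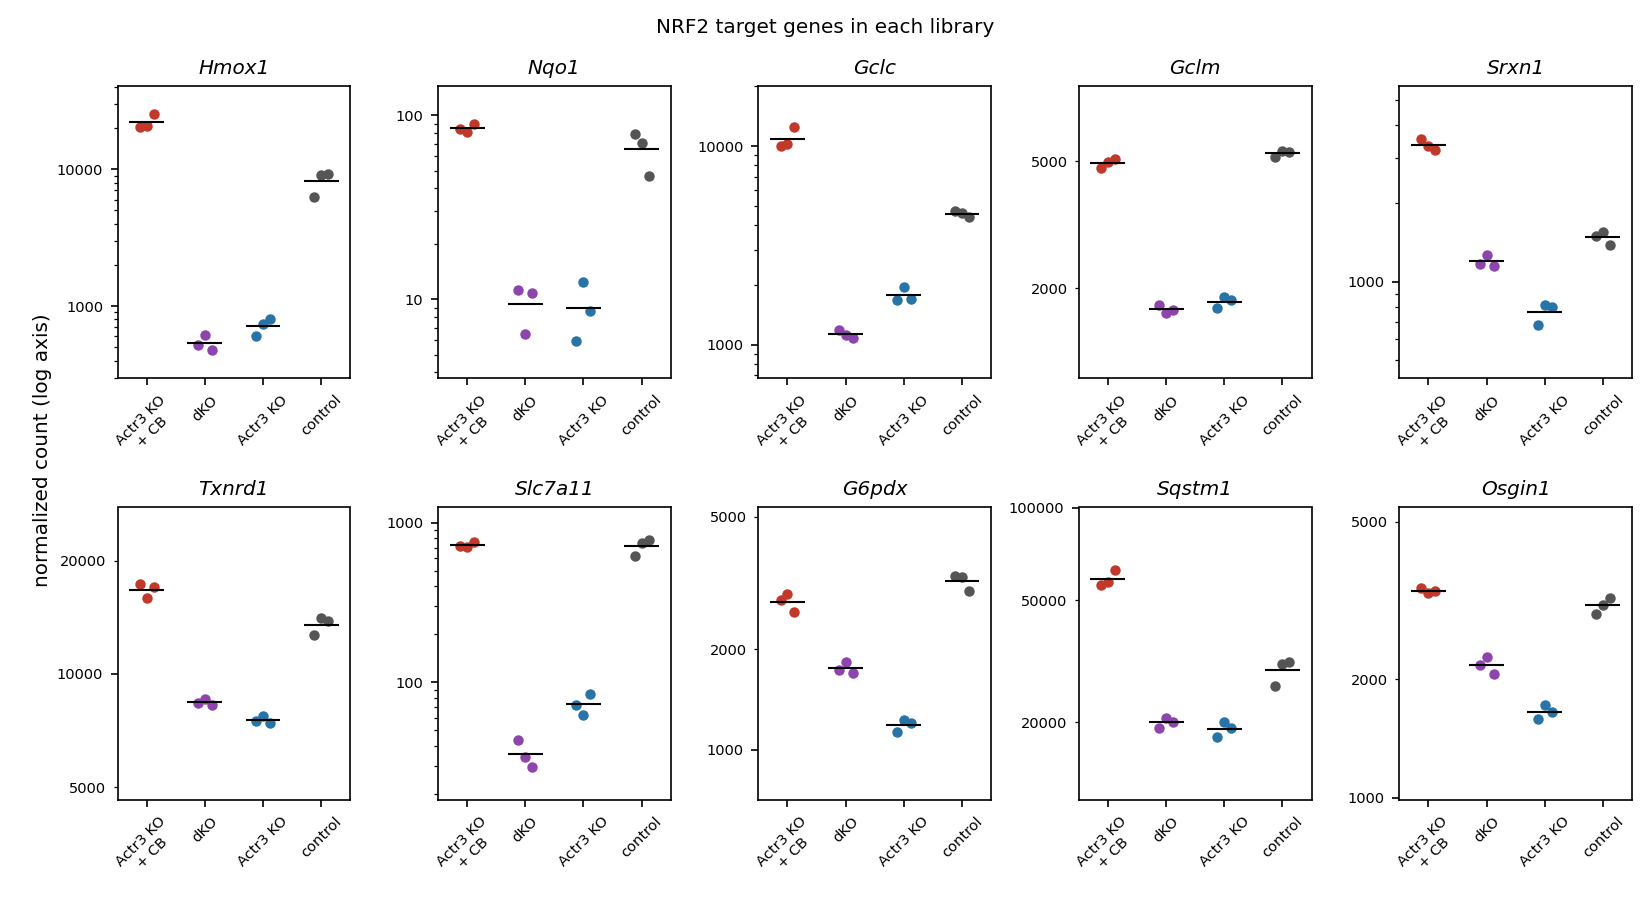
Normalized count of each of the 10 NRF2 target genes (log axis) in each library, by group from left to right: Actr3 KO with ciliobrevin D, dKO, Actr3 KO and control. Points are libraries and lines are group means of 3 libraries. In every panel the 3 Actr3 KO points and the 3 dKO points lie below all control points, as for Hmox1 with at most 805 against at least 6232. Of all tested genes, 37.2% lay below control in this way in Actr3 KO and 37.1% in dKO.

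The largest difference with the drug among the 10 was that of the haem-degrading member. Hmox1 (chr8:75093618-75100593, GRCm38) encodes haem oxygenase 1, which opens haem to biliverdin, iron and carbon monoxide. Its normalized counts were 20427, 20803 and 25369 in Actr3 KO CB, 517, 614 and 476 in dKO, 610, 742 and 805 in Actr3 KO, and 6232, 9133 and 9186 in control. The drug-treated libraries were the highest and the knockout libraries without drug the lowest, dKO and Actr3 KO overlapped, and the lowest control stood apart from the other two. Group means of Hmox1 were 11.4-fold lower in Actr3 KO than in control (log2 fold change -3.49 ± 0.12, SE) and 30.9-fold higher in Actr3 KO CB than in Actr3 KO (4.95 ± 0.12). Against control, the mean in Actr3 KO CB was 2.71-fold higher.

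Nqo1 (chr8:107388225-107403205) encodes a quinone reductase that uses NADPH and is a standard readout of NRF2 in many tissues, but here it was one of the least abundant members (per kilobase values follow). Its normalized counts were 84.2, 81.5 and 90.0 in Actr3 KO CB, 11.2, 6.47 and 10.8 in dKO, 5.96, 12.4 and 8.62 in Actr3 KO, and 78.9, 70.3 and 46.9 in control. Every drug-treated library was above every control library, and dKO and Actr3 KO overlapped at levels that rest on 6 to 12 reads a library. The mean was 7.26-fold lower in Actr3 KO than in control and 9.47-fold higher in Actr3 KO CB than in Actr3 KO. On the log2(value + 1) scale, which understates changes of low genes, these were -2.75 ± 0.28 and 3.16 ± 0.28. The difference between Actr3 KO CB and control, 0.41 ± 0.28, did not pass the threshold used throughout, a limma adjusted p under 0.05 over all genes tested.

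Glutathione synthesis is carried out first by glutamate-cysteine ligase, whose catalytic subunit is Gclc (chr9:77754535-77794489) and whose modifier subunit is Gclm (chr3:122245487-122267215), from cystine brought in by the exchanger Slc7a11 (chr3:50364936-50499087). Gclc had 10007, 10193 and 12555 normalized counts in Actr3 KO CB, 1178, 1117 and 1083 in dKO, 1675, 1947 and 1699 in Actr3 KO, and 4699, 4594 and 4389 in control. None of these 4 ranges overlapped, and the drug-treated mean was 2.39-fold that of control. Gclm had 4777, 4992 and 5098 in Actr3 KO CB, 1767, 1666 and 1710 in dKO, 1730, 1872 and 1830 in Actr3 KO, and 5178, 5395 and 5372 in control. Here the drug-treated libraries came close to control from below, and dKO and Actr3 KO overlapped. Slc7a11 had 721, 709 and 756 in Actr3 KO CB, 43.7, 34.2 and 29.4 in dKO, 72.5, 62.1 and 84.2 in Actr3 KO, and 624, 744 and 780 in control. Drug-treated and control libraries overlapped for Slc7a11, and all dKO libraries were below all Actr3 KO libraries.

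The 2 subunits of the ligase stood at different levels relative to control under the drug. In Actr3 KO CB against control the log2 difference was 1.25 ± 0.07 for Gclc, -0.10 ± 0.05 for Gclm (not past the threshold) and 0.03 ± 0.14 for Slc7a11 (not past it). Against Actr3 KO, the same drug-treated libraries were 6.16-fold higher for Gclc, 2.74-fold higher for Gclm and 9.99-fold higher for Slc7a11. In dKO against control the log2 fold change of Slc7a11 was -4.30 ± 0.14 and that of Hmox1 -3.92 ± 0.12, an order that turned over with chromosome medians removed (-3.85 for Slc7a11 and -3.93 for Hmox1). Its partner chain in the exchanger, Slc3a2, averaged 13391 ± 535 in Actr3 KO CB, 7357 ± 254 in dKO, 10551 ± 322 in Actr3 KO and 10587 ± 772 in control, with a log2 fold change of 0.00 between Actr3 KO and control (SE 0.06, limma adjusted p = 0.969).

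Thioredoxin and peroxiredoxin upkeep is served by Txnrd1 (chr10:82833951-82897724), which reduces thioredoxin with NADPH, and Srxn1 (chr2:152105524-152111376), which repairs over-oxidized peroxiredoxins. Srxn1 had 3534, 3333 and 3219 normalized counts in Actr3 KO CB, 1166, 1270 and 1153 in dKO, 681, 814 and 799 in Actr3 KO, and 1504, 1557 and 1382 in control. Its 4 ranges did not overlap, and dKO stood between Actr3 KO and control. Txnrd1 had 17320, 15935 and 16984 in Actr3 KO CB, 8389, 8571 and 8247 in dKO, 7493, 7747 and 7412 in Actr3 KO, and 12728, 14052 and 13834 in control, in the same order and also without overlap. Srxn1 was 4.40-fold higher in Actr3 KO CB than in Actr3 KO, and Txnrd1 2.22-fold higher.

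G6pdx (chrX:74409483-74428880) encodes glucose-6-phosphate dehydrogenase, the entry enzyme of the pentose phosphate pathway and a main source of NADPH. It had 2818, 2934 and 2589 normalized counts in Actr3 KO CB, 1732, 1831 and 1701 in dKO, 1132, 1225 and 1203 in Actr3 KO, and 3327, 3305 and 2992 in control. All groups were apart from each other, and G6pdx was the single member lower in Actr3 KO CB than in control past the threshold (log2 fold change -0.21 ± 0.06). With the median of each chromosome removed, G6pdx came to -0.05 there and was not called. Mice carry a near-identical retrogene copy of it, G6pd2, so reads may be split between them and its level is uncertain.

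Sqstm1 (chr11:50200152-50210820) encodes p62, an autophagy receptor that also binds KEAP1, and Osgin1 (chr8:119425882-119446257) encodes a growth inhibitor induced by oxidative stress. Sqstm1 had 56135, 57385 and 62616 normalized counts in Actr3 KO CB, 19122, 20703 and 20046 in dKO, 17885, 19964 and 19119 in Actr3 KO, and 26156, 30956 and 31341 in control. Drug-treated libraries were again the highest, and dKO and Actr3 KO overlapped. Osgin1 had 3396, 3301 and 3334 in Actr3 KO CB, 2173, 2276 and 2059 in dKO, 1584, 1721 and 1647 in Actr3 KO, and 2925, 3087 and 3209 in control. Its drug-treated libraries lay just above control (log2 fold change 0.12 ± 0.05, not past the threshold) and its dKO libraries between Actr3 KO and control.

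Corrected for exon length (normalized counts per kilobase of annotated exons), Sqstm1 was the most abundant member in each group, at 17495 in Actr3 KO CB, 5947 in dKO, 5658 in Actr3 KO and 8786 in control. Hmox1 came second in Actr3 KO CB (12678) and control (4674), but at 306 in dKO and 411 in Actr3 KO it stood below Txnrd1, at 1186 in dKO and 1066 in Actr3 KO. Nqo1 and Slc7a11 were the least abundant, at 54.9 and 52.3 in Actr3 KO CB, 6.10 and 2.57 in dKO, 5.80 and 5.24 in Actr3 KO, and 42.1 and 51.4 in control.

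Across all genes, calls were common. By limma on log2(value + 1) with Benjamini-Hochberg adjustment over the 13939 genes and an adjusted p under 0.05, 35.4% of genes were lower and 34.4% higher in Actr3 KO than in control, and 6.06% were lower by at least 2-fold. Of the members 10 of 10 were lower, 6 of them by at least 2-fold: Hmox1, Nqo1, Gclc, Gclm, Slc7a11 and G6pdx. Their log2 fold changes ran from -3.49 to -0.63 with a median of -1.40, beside a median of 0.00 over all genes, and the smallest was that of Sqstm1. For all 10 the 3 Actr3 KO libraries lay below the 3 control libraries, as they did for 37.2% of all genes.

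Ciliobrevin D in Actr3 KO cells was the comparison with the most members called at 2-fold or more. Here 32.7% of all genes were called higher and 32.9% lower in Actr3 KO CB than in Actr3 KO, and 5.86% were higher by at least 2-fold. All 10 members were called higher, by at least 2-fold, though with quantile normalization Osgin1 and Txnrd1 came to log2 fold changes of 0.91 and 0.98, just under it. Fold changes on the log2 scale ran from 1.02 for Osgin1 to 4.95 for Hmox1 with a median of 1.88, beside -0.02 over all genes, and the groups did not overlap for any member (for 34.3% of all genes the drug-treated libraries were higher without overlap). This comparison, the one above and that of dKO with Actr3 KO share the Actr3 KO libraries.

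The comparison of Actr3 KO CB with control leaves the Actr3 KO libraries out of its mean differences. Its SEs and calls still draw on the fit of all 12 libraries. In Actr3 KO CB against control 5 members were called higher, Hmox1, Gclc, Srxn1, Txnrd1 and Sqstm1, at log2 fold changes of 1.46 ± 0.12, 1.25 ± 0.07, 1.18 ± 0.07, 0.31 ± 0.05 and 1.00 ± 0.07. G6pdx was the 1 member called lower, a call lost with chromosome medians removed, while Nqo1, Gclm, Slc7a11 and Osgin1 were not called. Of all genes 33.0% were called higher and 32.0% lower in this comparison. The members' median was 0.36, beside 0.01 over all genes.

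**Figure D2:**
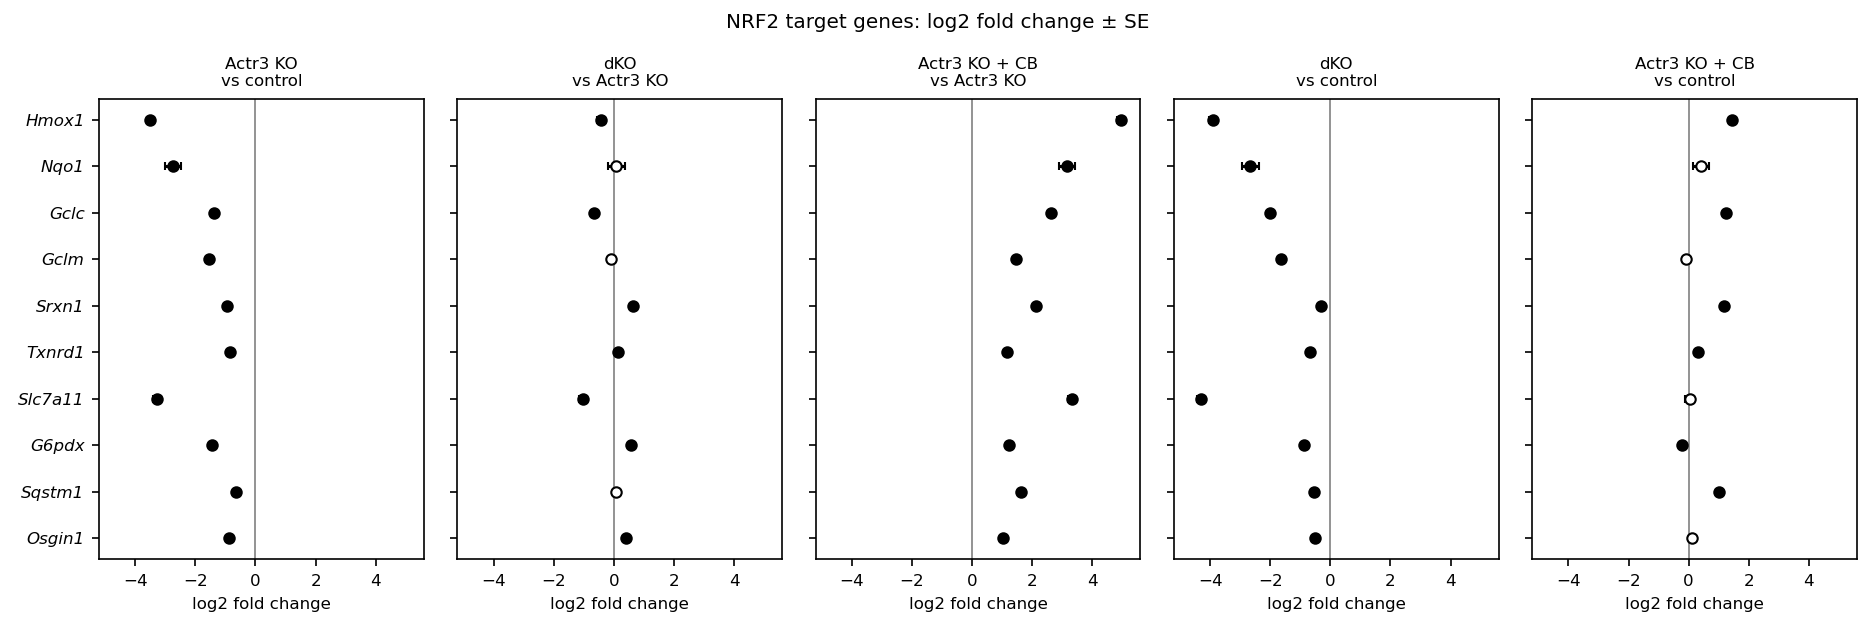
Log2 fold change of each NRF2 target gene (x axis, first-named group over the second, bars are SE) in the 5 comparisons of 3 libraries against 3, with filled points at a limma adjusted p under 0.05 over all genes and open points otherwise. All points lie left of 0 for Actr3 KO and for dKO against control and right of 0 for Actr3 KO + CB against Actr3 KO, while dKO against Actr3 KO falls on both sides.

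Between dKO and Actr3 KO the members went in both directions. Srxn1 (log2 fold change 0.65 ± 0.07), G6pdx (0.56 ± 0.06), Osgin1 (0.39 ± 0.05) and Txnrd1 (0.15 ± 0.05) were called higher in dKO. Slc7a11 (-1.02 ± 0.14), Gclc (-0.65 ± 0.07) and Hmox1 (-0.42 ± 0.12) were called lower, though the Hmox1 libraries overlapped, and Nqo1, Gclm and Sqstm1 were not called. In this comparison 32.5% of all genes were called higher and 33.2% lower. The members' median was 0.08, beside -0.01 over all genes.

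Whole chromosomes differed in this comparison, and the members lie on 7 of them. The median log2 fold change of dKO against Actr3 KO was 0.40 over the 655 tested genes of chromosome 10, which carries Txnrd1, and -0.39 over the 656 of chromosome 3, which carries Gclm and Slc7a11. For the chromosomes of the other members it was between -0.05 and 0.03. With each chromosome's median taken out of every library, Txnrd1 was at -0.28 (0.15 before), Gclm at 0.31 (-0.08 before) and Slc7a11 at -0.62, so the directions given for Txnrd1 and Gclm rest on the scale used. Hmox1, Gclc, Srxn1, G6pdx and Osgin1 moved by less than 0.05 and kept their calls. Leaving out dKO replicate 2 also ended the call of Txnrd1, at a log2 fold change of 0.14. Other comparisons held chromosome shifts too. In Actr3 KO against control the median was -0.42 on chromosome 6, -0.24 on chromosome 5 and -0.14 on chromosome X. With medians removed, G6pdx on chromosome X came to -1.26 there (-1.43 before). Chromosome 6 also had a median of -0.41 in Actr3 KO CB against control. It carries no member, but it carries Akr1b3, whose levels below are given without that correction.

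**Figure D3:**
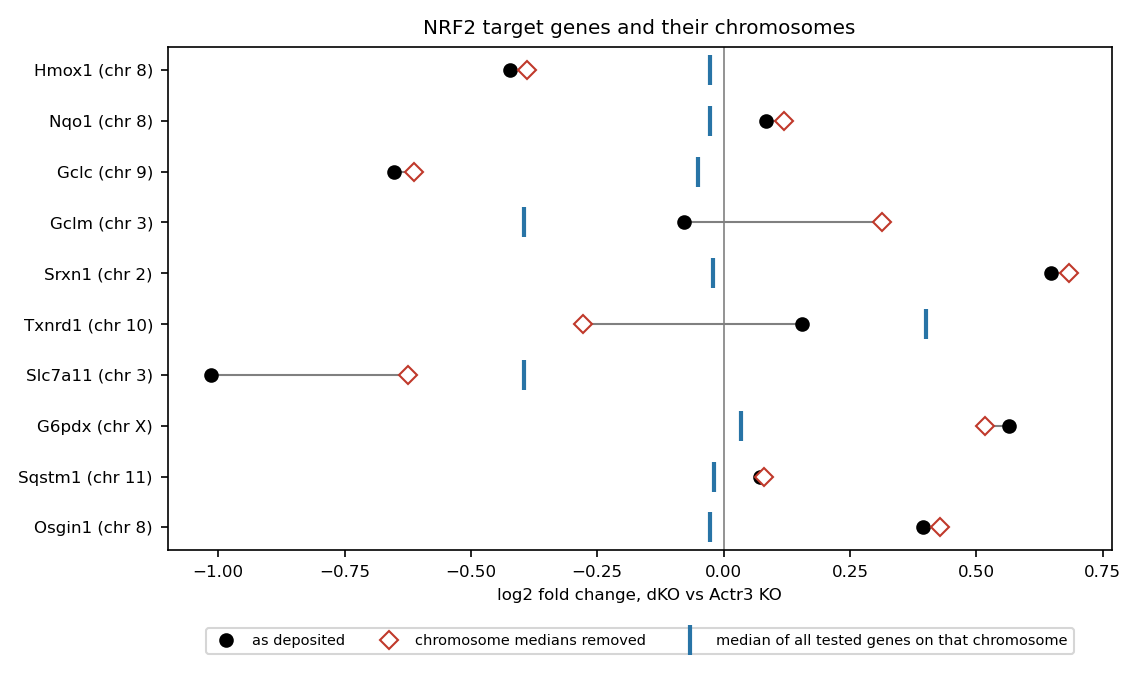
Log2 fold change in dKO over Actr3 KO (x axis) for each NRF2 target gene with its chromosome, as deposited (black circles) and after each chromosome's median was removed (open diamonds); blue ticks give the median over all tested genes of that chromosome. Txnrd1 on chromosome 10 and Gclm on chromosome 3 cross 0, and Slc7a11 stays below 0, at -0.62.

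Against control, dKO was lower for 10 of 10 members, 5 of them by at least 2-fold (Hmox1, Nqo1, Gclc, Gclm and Slc7a11), where 35.1% of all genes were called lower, 7.98% by at least 2-fold, and 32.0% higher. For all 10 the dKO libraries lay below the control libraries, as they did for 37.1% of all genes. Log2 fold changes ran from -4.30 for Slc7a11 to -0.31 for Srxn1, with a median of -1.25 beside -0.01 over all genes. Side by side, dKO and Actr3 KO stood at -0.31 and -0.96 from control for Srxn1, at -0.87 and -1.43 for G6pdx, and at -0.50 and -0.90 for Osgin1. For Slc7a11 they stood at -4.30 and -3.28, and for Gclc at -2.02 and -1.36. Both of these comparisons use the same control libraries. The chromosome shifts were present here too, with medians of 0.40 on chromosome 10 and -0.44 on chromosome 3. With them removed, Txnrd1 came to -1.07 (-0.69 before), past 2-fold, and Gclm to -1.18 (-1.63 before), and all 10 members were still called lower. With quantile normalization Sqstm1 came to -0.34 (-0.56 before).

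The genes most like Hmox1 and Nqo1 in pattern were sought among 11053 genes with a mean of at least 100, by the Euclidean distance between log2 profiles over the 12 libraries. Genes without a name and predicted or clone-named genes were passed over in the ranking. Nearest to Hmox1 was Hspa1a, a heat shock chaperone gene with a near-identical copy (distance 1.37), which averaged 1372 ± 247 in Actr3 KO CB, 28.3 ± 9.46 in dKO, 34.3 ± 5.63 in Actr3 KO and 321 ± 45.8 in control. Lag3, an immune checkpoint receptor (1.54), and Fosl1, an AP-1 subunit (1.78), came next, and Fosl1 averaged 838 ± 102 in Actr3 KO CB, 48.0 ± 7.16 in dKO, 55.2 ± 10.7 in Actr3 KO and 662 ± 43.7 in control. Nearest to Nqo1 were Dusp6 (1.17) and Dusp4 (1.23), phosphatases that act on MAP kinases and are induced by ERK signalling, and the glutathione transferase Gsta4 (1.26). Nqo1 itself was below 100 in every library, with 6 to 12 reads a library in dKO and Actr3 KO. The log2(value + 1) scale understates changes of such low genes, so its ranking is uncertain. Dusp6 averaged 10277 ± 909 in Actr3 KO CB, 1344 ± 16.5 in dKO, 1221 ± 102 in Actr3 KO and 9859 ± 985 in control.

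Upstream of the targets, RNA for NRF2 itself differed less between Actr3 KO CB and Actr3 KO, and between Actr3 KO and control, than that of any of the 10. Nfe2l2 had 5063, 5147 and 5220 normalized counts in Actr3 KO CB, 2961, 2869 and 2813 in dKO, 2950, 2877 and 3036 in Actr3 KO, and 3341, 3464 and 3455 in control. Drug-treated libraries were the highest and control came next, with dKO and Actr3 KO overlapping. By limma it was higher in Actr3 KO CB than in Actr3 KO (log2 fold change 0.80 ± 0.05, adjusted p = 4.75e-12) and than in control (0.59 ± 0.05, adjusted p = 7.18e-10), and slightly lower in Actr3 KO than in control (-0.21 ± 0.05, adjusted p = 0.000429). Its relative Nfe2l1, which responds to proteasome inhibition, was lower in Actr3 KO CB than in Actr3 KO (-0.53 ± 0.06, adjusted p = 9.07e-08) and lower in dKO than in Actr3 KO (-0.60 ± 0.06, adjusted p = 1.33e-08).

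Of the ligase that removes NRF2, Keap1 averaged 2002 ± 71.0 in Actr3 KO CB, 1889 ± 47.7 in dKO, 1740 ± 39.7 in Actr3 KO and 1579 ± 43.2 in control, a narrow range. Its difference was 0.20 ± 0.05 between Actr3 KO CB and Actr3 KO (limma adjusted p = 0.00172). The calls of Keap1 in Actr3 KO against control (0.14, adjusted p = 0.0197) and in dKO against Actr3 KO (0.12, adjusted p = 0.0482) were lost when single libraries were left out, with adjusted p up to 0.111 and 0.137 over all alternatives. Cul3 averaged 5862 ± 380 in Actr3 KO CB, 3481 ± 204 in dKO, 3396 ± 232 in Actr3 KO and 4986 ± 116 in control, and was lower in Actr3 KO than in control (-0.56 ± 0.06, limma adjusted p = 5.43e-08). Rbx1 averaged 2779 ± 57.7, 3351 ± 135, 2127 ± 115 and 2991 ± 16.9 in the same groups, lowest in Actr3 KO. Btrc, which serves a second, KEAP1-independent route of NRF2 breakdown, was higher in Actr3 KO than in control (0.47 ± 0.06, limma adjusted p = 2.89e-07) and lower in Actr3 KO CB than in Actr3 KO (-0.41 ± 0.06, limma adjusted p = 2.05e-06).

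The small MAF partners had group means in orders also seen among the targets, with Actr3 KO CB highest and control next. Maff had 9721, 10846 and 12058 normalized counts in Actr3 KO CB, 1670, 1893 and 1703 in dKO, 1992, 2038 and 1963 in Actr3 KO, and 5261, 7381 and 7510 in control. It was lower in Actr3 KO than in control (log2 fold change -1.73 ± 0.10, limma adjusted p = 2.15e-12) and higher in Actr3 KO CB than in Actr3 KO (2.44 ± 0.10, limma adjusted p = 1.3e-14). Mafk averaged 4844 ± 342 in Actr3 KO CB, 2578 ± 156 in dKO, 1799 ± 20.5 in Actr3 KO and 3618 ± 332 in control. Its difference between dKO and Actr3 KO, 0.52 ± 0.07, came to 0.10 with chromosome medians removed (limma adjusted p = 0.172). Mafg averaged 4945 ± 527 in Actr3 KO CB, 1695 ± 36.8 in dKO, 2258 ± 68.4 in Actr3 KO and 2608 ± 179 in control.

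RNA for BACH1, the repressor that competes with NRF2, was highest in the drug-treated cells. Bach1 had 6183, 6448 and 6733 normalized counts in Actr3 KO CB, 2390, 2137 and 2213 in dKO, 3845, 3758 and 4130 in Actr3 KO, and 3645, 3648 and 3709 in control. Against Actr3 KO it was higher in Actr3 KO CB (log2 fold change 0.72 ± 0.05, limma adjusted p = 2.3e-10) and lower in dKO (-0.80 ± 0.05, limma adjusted p = 4.24e-11). The difference between dKO and Actr3 KO was -0.38 with chromosome medians removed, as chromosome 16, which carries Bach1, had a median of -0.41. Bach2 averaged 515 ± 17.7 in Actr3 KO CB, 275 ± 26.8 in dKO, 461 ± 39.2 in Actr3 KO and 250 ± 12.8 in control. Over the 11 regulators, 8 were called higher and 2 lower in Actr3 KO CB than in Actr3 KO, 3 higher and 5 lower in dKO than in Actr3 KO, and 3 higher and 6 lower in Actr3 KO than in control. Of all tested genes 32.7% were called higher and 32.9% lower in the first of these comparisons, 32.5% and 33.2% in the second, and 34.4% and 35.4% in the third, so with 11 genes the counts in dKO against Actr3 KO are near those shares.

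**Figure D4:**
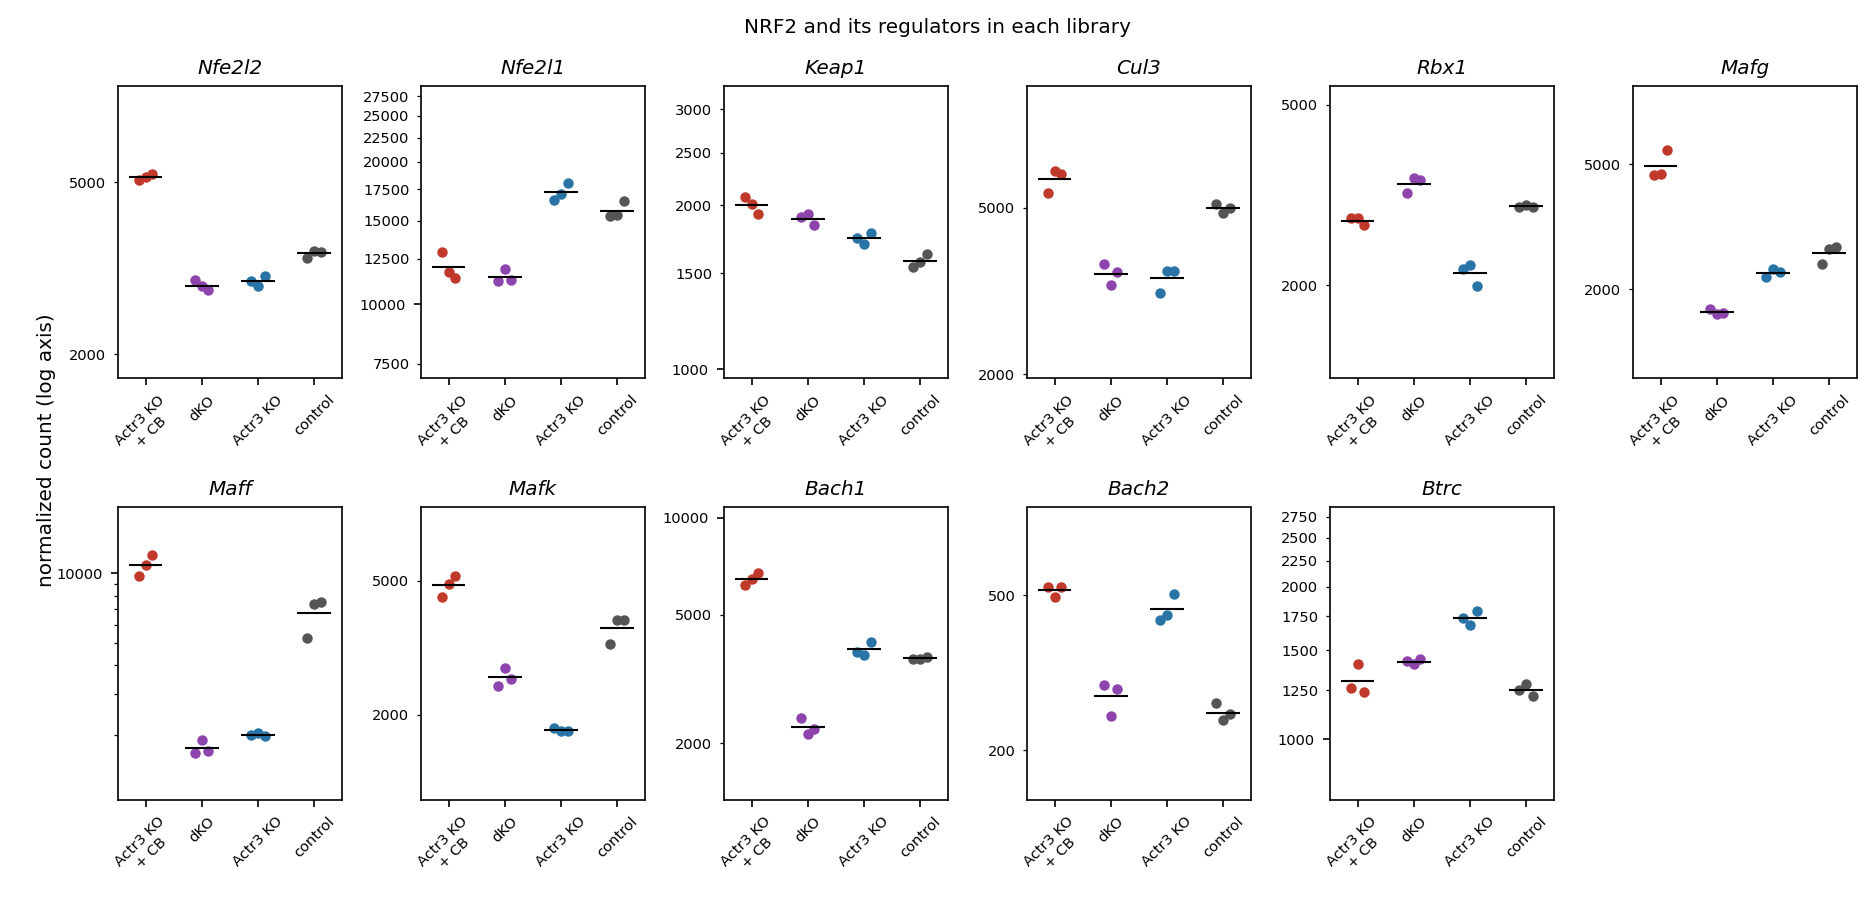
Normalized count of NRF2 (Nfe2l2) and 10 regulators or relatives (log axis) in each library, with groups from left to right Actr3 KO with ciliobrevin D, dKO, Actr3 KO and control. Points are libraries and lines are means of 3 libraries. Nfe2l2, Cul3, Mafg, Maff, Mafk and Bach1 were highest in the drug-treated libraries, while Nfe2l1 and Btrc were highest in Actr3 KO. Keap1 and Bach2 also had their highest means in the drug-treated group, with some overlap of libraries.

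Other genes of the glutathione and thioredoxin systems were mostly lower in Actr3 KO than in control, and mostly lower than control with the drug as well. Of 36 listed, 32 were tested, and 24 were called lower and 2 higher in Actr3 KO than in control. In Actr3 KO CB against Actr3 KO 15 were called higher and 9 lower, and against control 5 higher and 23 lower. Over all tested genes 34.4% were higher and 35.4% lower in the first of these comparisons, 32.7% and 32.9% in the second, and 33.0% and 32.0% in the third. Their median log2 fold changes were -0.70, 0.23 and -0.49 in these comparisons, beside medians over all genes between -0.02 and 0.01. Thioredoxin itself, Txn1, averaged 5858 ± 260 in Actr3 KO CB, 4684 ± 261 in dKO, 3395 ± 49.7 in Actr3 KO and 10760 ± 428 in control. It was lower in Actr3 KO than in control (-1.66 ± 0.05, limma adjusted p = 4.03e-16), and still lower than control with the drug (-0.88 ± 0.05, limma adjusted p = 1.05e-11). The peroxiredoxins Prdx1 and Prdx6, which reduce peroxides, were also lower in Actr3 KO than in control, by -1.28 ± 0.06 (limma adjusted p = 4.2e-14) and -1.19 ± 0.06 (limma adjusted p = 2.26e-13).

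Gsta4, a glutathione transferase for lipid aldehydes, went with the 10 targets, averaging 376 ± 62.8 in Actr3 KO CB, 34.9 ± 5.84 in dKO, 26.3 ± 5.64 in Actr3 KO and 202 ± 36.7 in control. Ggt1, which breaks down extracellular glutathione, averaged 90.2 ± 14.9 in Actr3 KO CB, 19.9 ± 3.81 in dKO, 249 ± 29.8 in Actr3 KO and 296 ± 44.4 in control, and was lower in dKO than in Actr3 KO (-3.60 ± 0.16, limma adjusted p = 7.92e-14). Gstm2, a glutathione transferase of a family of near-identical copies and so uncertain, was higher in dKO than in Actr3 KO (1.73 ± 0.09, limma adjusted p = 3.44e-13), as was Gsto1 (1.12 ± 0.06, limma adjusted p = 6.64e-13). Over this list 18 genes were called higher and 7 lower in dKO than in Actr3 KO, with a median of 0.41, where 32.5% of all tested genes were higher and 33.2% lower.

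NADPH-supplying enzymes beside G6pdx numbered 9, all tested. In Actr3 KO against control 7 were called lower and the other two were not called, and in Actr3 KO CB against Actr3 KO 6 were called higher and 3 lower (35.4% of all tested genes were lower in the first, and 32.7% higher and 32.9% lower in the second). Pgd, the next NADPH-forming step of the pentose phosphate pathway, averaged 8359 ± 171 in Actr3 KO CB, 3820 ± 333 in dKO, 3211 ± 197 in Actr3 KO and 8349 ± 562 in control. Me1, the cytosolic malic enzyme, averaged 3753 ± 340, 2354 ± 132, 1529 ± 126 and 4089 ± 20.8 in the same groups. For both, drug-treated cells and control did not differ past the threshold (limma adjusted p = 0.964 for Pgd and 0.1 for Me1). H6pd, which makes NADPH inside the endoplasmic reticulum, went the other way in the comparisons against Actr3 KO, and like Pgd and Me1 was below control in dKO, at 8344 ± 577 in Actr3 KO CB, 6168 ± 361 in dKO, 14082 ± 1289 in Actr3 KO and 13475 ± 47.0 in control.

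Of 32 listed genes of drug and aldehyde metabolism, haem and iron, 23 were tested, with 14 lower and 4 higher in Actr3 KO than in control, and 14 higher and 4 lower in Actr3 KO CB than in Actr3 KO, beside 35.4% and 34.4% of all tested genes in the first comparison, and 32.7% and 32.9% in the second. Ferritin, which stores iron such as that freed from haem, is made of the chains Ftl1 and Fth1, both of which have many pseudogene copies and so uncertain levels. Ftl1 averaged 9326 ± 1233 in Actr3 KO CB, 2736 ± 115 in dKO, 2305 ± 70.1 in Actr3 KO and 5091 ± 412 in control, and Fth1 25915 ± 741, 13859 ± 422, 11618 ± 865 and 21375 ± 1067. Both were lower in Actr3 KO than in control and higher in Actr3 KO CB than in control, the difference with the drug being 0.87 ± 0.07 for Ftl1 (limma adjusted p = 2.15e-09) and 0.28 ± 0.06 for Fth1 (limma adjusted p = 0.000464). Aldose reductase, Akr1b3, averaged 7666 ± 1508 in Actr3 KO CB, 4262 ± 327 in dKO, 2900 ± 273 in Actr3 KO and 21432 ± 1244 in control. The efflux pump Abcc3 averaged 1816 ± 107 in Actr3 KO CB, 107 ± 13.5 in dKO, 1631 ± 181 in Actr3 KO and 1729 ± 30.9 in control, so it was low in dKO and did not differ past the threshold between the other groups.

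**Figure D5:**
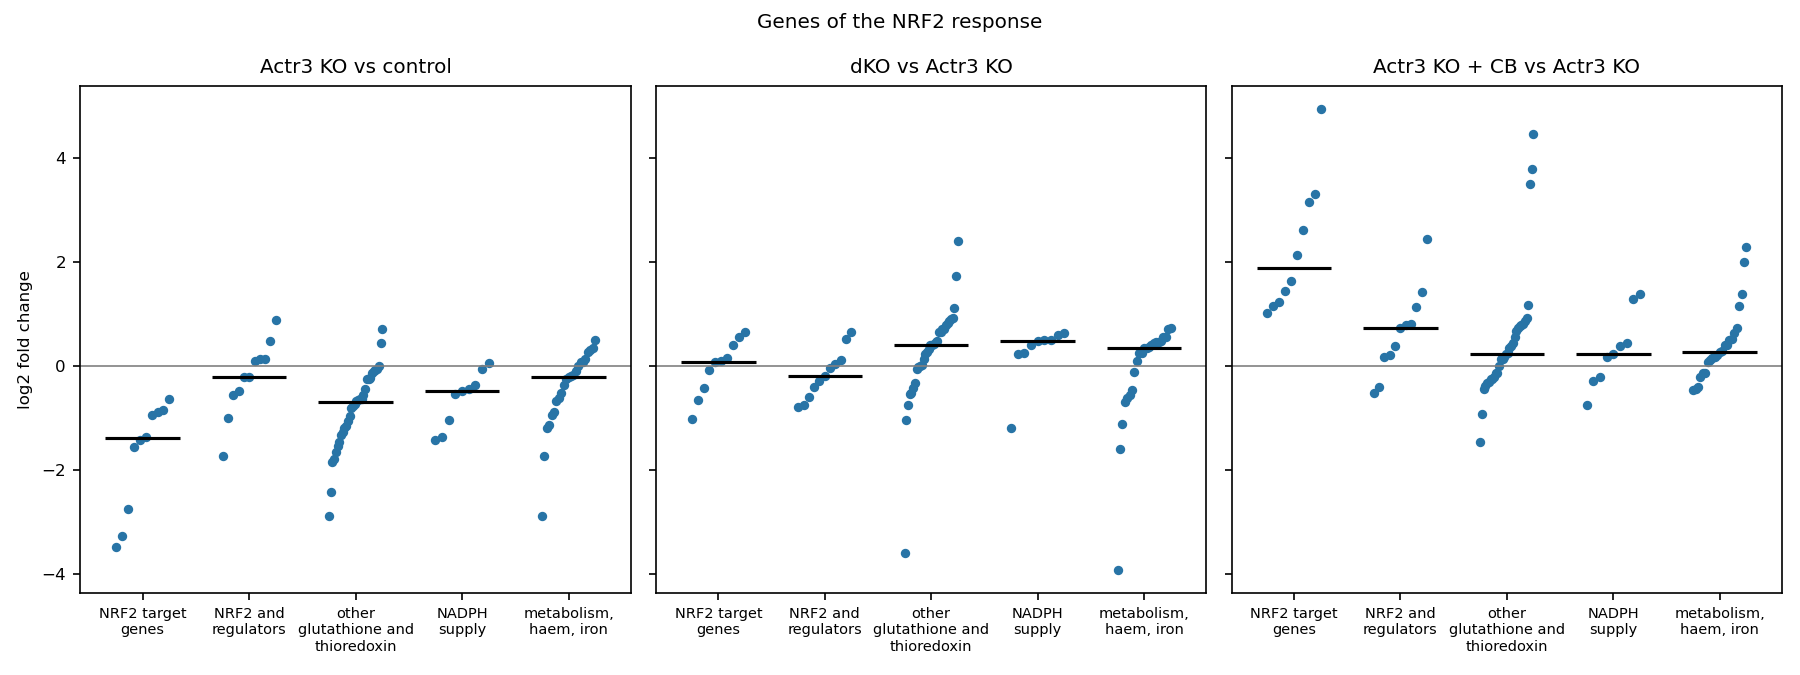
Log2 fold change of every tested gene (points) in the 10 NRF2 targets, 11 genes of NRF2 and its regulators, 32 other glutathione and thioredoxin genes, 9 NADPH-supplying enzymes and 23 genes of metabolism, haem and iron, in 3 comparisons; lines are list medians. The targets have medians of -1.40, 0.08 and 1.88, and the other glutathione and thioredoxin genes -0.70, 0.41 and 0.23.

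Some members answer to other factors as well, and genes of those pathways were read in the same way. Slc7a11 and Sqstm1 are also induced by ATF4, the factor of the integrated stress response. Of 9 genes of that response, 8 were called lower in Actr3 KO than in control and 1 was not called, and 6 higher and 1 lower in Actr3 KO CB than in Actr3 KO, again beside 35.4% of all tested genes lower in the first, and 32.7% higher and 32.9% lower in the second. Atf3, a stress-induced factor, averaged 28252 ± 2989 in Actr3 KO CB, 887 ± 62.9 in dKO, 1360 ± 252 in Actr3 KO and 5656 ± 1506 in control, and Ddit3, which encodes CHOP, 3537 ± 429, 1818 ± 44.7, 1034 ± 47.4 and 975 ± 66.3. Atf4 itself was lower in Actr3 KO than in control (-0.85 ± 0.05, limma adjusted p = 7.3e-12). It was higher in Actr3 KO CB than in Actr3 KO (0.90 ± 0.05, limma adjusted p = 3.45e-12). Psat1, a serine synthesis enzyme, was lower in Actr3 KO CB than in control (-0.71 ± 0.06, limma adjusted p = 1.02e-09), as was Slc7a5 (-0.80 ± 0.06, limma adjusted p = 3.17e-10). In that comparison 4 of the 9 were called higher and 4 lower (33.0% and 32.0% of all tested genes). Nqo1 is also induced by the aryl hydrocarbon receptor, whose most responsive target Cyp1a1 had no read in any library. Cyp1b1, another of its targets, was lower in dKO than in Actr3 KO (-1.59 ± 0.07, limma adjusted p = 2.03e-14) and did not differ past the threshold between Actr3 KO CB and Actr3 KO (-0.11 ± 0.07, limma adjusted p = 0.154). Tiparp, also listed for this receptor, was lower in Actr3 KO than in control (-0.43 ± 0.05, limma adjusted p = 2.01e-07). It was higher in Actr3 KO CB than in Actr3 KO (0.92 ± 0.05, limma adjusted p = 2.46e-12). Of the 8 genes so listed, 5 were tested, Nfe2l2 among them. Of these, 2 were higher and 3 lower in Actr3 KO than in control (34.4% and 35.4% of all tested genes). In Actr3 KO CB against Actr3 KO 2 were higher and 1 lower (32.7% and 32.9%).

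Among 11 autophagy receptors and LC3-family genes set beside Sqstm1, 4 were higher and 4 lower in Actr3 KO than in control, and 6 higher and 3 lower in Actr3 KO CB than in Actr3 KO. The counts in Actr3 KO against control are close to the 34.4% higher and 35.4% lower of all tested genes, and those with the drug stand beside 32.7% and 32.9%. Optn, a receptor like p62, averaged 1794 ± 81.2 in Actr3 KO CB, 1612 ± 23.7 in dKO, 1271 ± 36.2 in Actr3 KO and 793 ± 34.7 in control. Calcoco1, a receptor for the endoplasmic reticulum and Golgi, averaged 2719 ± 120, 4526 ± 285, 4551 ± 96.3 and 2759 ± 66.6 in the same groups, high where Sqstm1 was low. Map1lc3b, the LC3 gene, was higher in Actr3 KO CB than in control (0.34 ± 0.06, limma adjusted p = 6.41e-05).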

How the data were processed

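Poly(A) RNA of mIMCD3 cells was sequenced in 12 libraries, 3 in each of 4 groups taken from the sample titles and genotypes. Per the submitters' processing notes, the tools were DESeq2 2.11.40.7, featureCounts 2.0.1, HISAT2 2.2.1 and fastp 0.23.2, on mm10 and GRCm38, and nothing says in which order, with which options or whether strand was used. The deposited table holds a signal, the authors' normalized counts: every value was a whole multiple of 1 step per library (tolerance 0.01 reads), so whole reads were recovered by division. One control column is named with a line number that matches no title, and it entered the control group unnumbered. No pair of replicates looked like 1 library deposited again (chi-square over degrees of freedom 4.48 to 16.9 in 12 pairs). Names came from RefSeq GRCm38.p6 for 25275 of the 27179 IDs.

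The 13939 genes that reached 10 in 3 or more libraries were fitted as log2(value + 1) with limma 3.58.1 in R 4.3.3 (trend, all 12 libraries in 1 fit, two-sided), with calls where the p-value adjusted by Benjamini-Hochberg over all of them was under 0.05, in 5 comparisons. The log2 scale understates changes of low genes. Calls were recomputed with edgeR 4.0.16 and DESeq2 1.42.0 on the recovered reads and under other settings, 24 alternatives in all, and the fits were first tested on simulated data. Same-numbered libraries did not deviate together (correlations of deviations -0.04 to 0.07 over 12 pairs, none over 0.1), so libraries were not paired.

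The members and all gene lists were chosen with earlier results of these data known, so the calls and adjusted p-values of these genes are descriptive. Members and listed regulators are all named, as are the 3 genes most alike in pattern to Hmox1 and Nqo1. In each other list and comparison, up to 3 called genes with the smallest adjusted p were ranked for naming. Only some of these are named here, so the named genes do not stand for their lists. A few further listed genes (Slc3a2 and the targeted and marker genes) were named after their values were seen. Promoters were printed where they hold the core motif.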

Additional observations from a re-analysis of the deposited data

How the results depend on the processing

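Over 24 alternatives, the counts of members called kept within 1.5 times of those given, except under 3 settings. With a fold of at least 2 also asked for, 6 members were lower in Actr3 KO than in control, 0 higher and 1 lower in dKO than in Actr3 KO, 5 lower in dKO than in control, and 3 higher and 0 lower in Actr3 KO CB than in control. In that last comparison 2 members were lower with quantile normalization and 0 with chromosome medians removed, where G6pdx came to -0.05. With chromosome medians removed, Gclm turned to 0.31 and Txnrd1 to -0.28 in dKO against Actr3 KO. Fitted with the replicate block on the 11 numbered libraries, 10 members were lower in Actr3 KO than in control and 10 higher in Actr3 KO CB than in Actr3 KO, and no member's call changed. Of the members' fold changes under these alternatives, 1168 kept direction and side of the threshold, 20 lost and 5 gained a call, and 2 turned round. Nqo1 was not tested under the alternative that kept only genes with a mean value of at least 50. Osgin1 in Actr3 KO CB against control gained a call with DESeq2, with chromosome medians removed and without control replicate 3, Gclm there and Sqstm1 in dKO against Actr3 KO gained one with quantile normalization, and beside calls lost to the 2-fold limit only Txnrd1 in dKO against Actr3 KO (without dKO replicate 2) and G6pdx, as above, lost one. In dKO against control, Txnrd1 ranged from -1.07 to -0.46 and Sqstm1 from -0.64 to -0.34, and in Actr3 KO CB against Actr3 KO Osgin1 reached down to 0.91 and Txnrd1 to 0.98. Depth limits Nqo1 most, at 6 to 12 reads a library in dKO and Actr3 KO, and the causes of these shifts were not tested.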
